A study of Mus musculus with 8 samples.

Results

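The interferon-inducible genes described here are 42 genes that cells switch on after exposure to an interferon, taken by gene symbol from the array annotation. All 42 were on the array, on 57 of its 39429 non-control probes, and the array named 29608 genes or unnamed transcripts in all. They fall into 8 guanylate-binding proteins (Gbp genes), 5 immunity-related GTPases (Irg genes), 6 regulators and antigen-processing genes of the interferon gamma response, and 23 genes best known from the type I interferon response.

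The samples were forepaw palm skin of male C57BL/6 WT mice and of Adcyap1r1 -/- mice, which lack the PACAP receptor PAC1R (PAC1R KO mice), all 9 to 10 weeks old. Anaesthetised mice received 5 µL of saline with 0.1% BSA into the footpad, either with 1e-07 mol/L PACAP (pituitary adenylate cyclase-activating polypeptide) or without it (vehicle), and skin was taken 30 or 60 min later. This gave 8 RNA samples, hybridised as 4 pairs of PACAP against vehicle on 2-colour Agilent arrays, each pair on 2 arrays with the dyes swapped. The study used 6 mice of each genotype, whether RNA was pooled is not given in the sources used here, and each comparison therefore counts as 1 pair of RNA samples without a replicate across animals. WT and KO samples were hybridised on separate slides (1 each), and genotype therefore cannot be told apart from slide.

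Interferons are secreted proteins that signal through cell-surface receptors and JAK kinases to STAT transcription factors. Interferon gamma, made mainly by T and NK cells, acts largely through promoter elements called gamma-activated sites (GAS), whereas type I interferons act largely through interferon-stimulated response elements (ISRE) and induce antiviral genes. Gbp and Irg proteins are GTPases that attack the vacuoles of intracellular bacteria and parasites, and in mice most of them respond strongly to interferon gamma.

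Promoter sequence, which played no part in choosing the genes, was searched for both elements. RefSeq promoters (build GRCm38.p6, from 250 bases before to 50 bases after the transcription start) were at hand for 30 of the 42 genes, as 35 promoters. The ISRE core (GAAA, any 2 bases, GAAA) stood on either strand in 17 of these 35 promoters (48.6%), against 3.44% of all 32851 promoters. The GAS core (TTC, any 3 bases, GAA), which matches on both strands at once, stood in 10 of 35 (28.6%), against 8.3% of all promoters. The promoters of all 4 Irg genes at hand held an ISRE core and 3 of them also a GAS core. Of the 6 regulators and antigen-processing genes, 5 had promoters at hand, which held no ISRE core, and 3 of these 5 genes held a GAS core. Of the 17 type I genes at hand, 9 held an ISRE core and 2 a GAS core. Of the 30 genes at hand, 21 held either core and 9 neither. Among the 9, the promoters of Psmb9 (chr17:34187281-34187580, minus strand) and Tap1 (chr17:34187306-34187605, plus strand) overlap for most of their length. They are therefore not separate sequences. A match is a description of letters in this window and not a measured binding site.

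**Figure D1:**
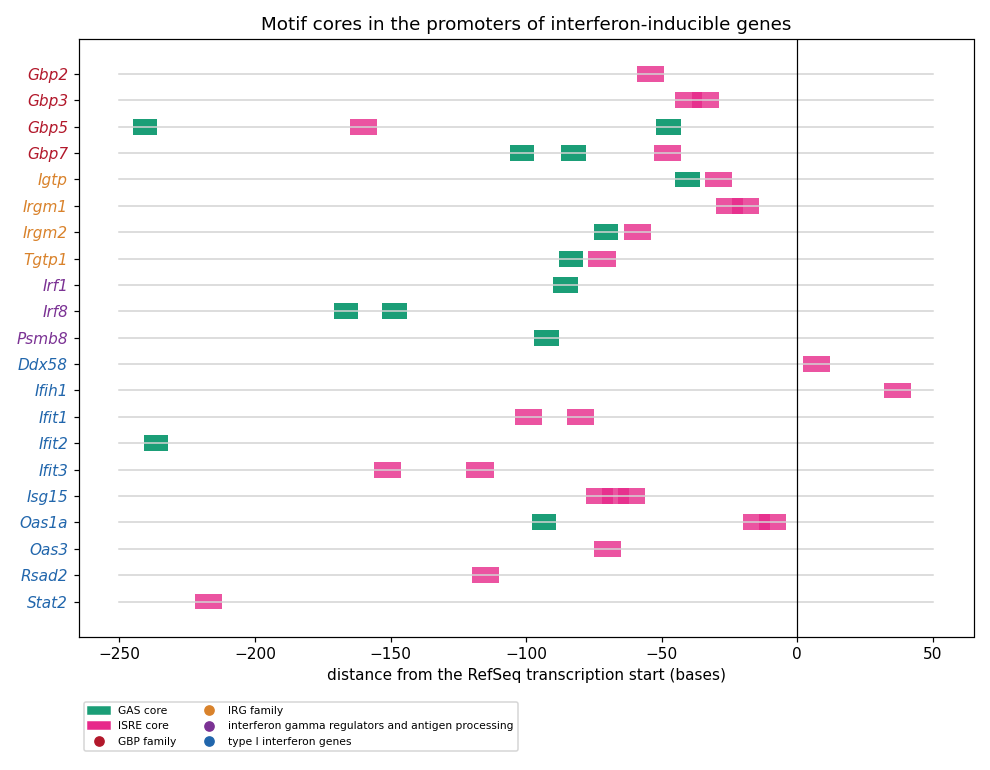
Positions of the ISRE core (pink) and the GAS core (green) in the promoters of interferon-inducible genes that held at least 1 of them, by distance in bases from the RefSeq transcription start, with gene names coloured by class. In Igtp, Irgm2 and Tgtp1 the GAS core stood just before the ISRE core, and 2 of the 17 type I genes at hand held a GAS core.

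The 120 bases before the start are shown for the genes on which the results below turn, with the ISRE and GAS cores in capitals. Igtp (chr11:58199436-58199555, plus strand), Irgm2 (chr11:58214857-58214976, plus strand), Irgm1 (chr11:48871421-48871540, minus strand) and Tgtp1 (chr11:48992247-48992366, minus strand) are Irg genes, Gbp2 (chr3:142620543-142620662, plus strand) and Gbp3 (chr3:142559924-142560043, plus strand) are guanylate-binding proteins, Irf1 (chr11:53769894-53770013, plus strand) is the regulator, and Isg15 (chr4:156200819-156200938, minus strand) is shown as a type I gene for contrast.
Igtp: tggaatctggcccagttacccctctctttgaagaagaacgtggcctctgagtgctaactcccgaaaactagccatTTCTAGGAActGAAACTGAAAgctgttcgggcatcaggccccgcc
Irgm2: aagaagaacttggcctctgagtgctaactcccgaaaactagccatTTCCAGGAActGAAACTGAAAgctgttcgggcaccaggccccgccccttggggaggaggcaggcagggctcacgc
Tgtp1: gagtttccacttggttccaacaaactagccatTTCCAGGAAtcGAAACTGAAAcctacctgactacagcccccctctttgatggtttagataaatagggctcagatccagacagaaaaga
Irgm1: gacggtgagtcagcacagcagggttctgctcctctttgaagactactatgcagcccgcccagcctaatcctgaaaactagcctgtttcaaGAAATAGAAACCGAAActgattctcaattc
Gbp2: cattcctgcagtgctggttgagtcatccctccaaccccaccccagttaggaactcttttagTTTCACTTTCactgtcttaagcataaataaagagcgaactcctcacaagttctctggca
Gbp3: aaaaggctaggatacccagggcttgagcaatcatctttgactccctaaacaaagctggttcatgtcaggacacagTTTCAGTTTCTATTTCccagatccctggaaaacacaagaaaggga
Irf1: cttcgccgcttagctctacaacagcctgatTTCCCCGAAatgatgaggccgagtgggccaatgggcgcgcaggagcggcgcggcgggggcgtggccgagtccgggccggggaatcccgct
Isg15: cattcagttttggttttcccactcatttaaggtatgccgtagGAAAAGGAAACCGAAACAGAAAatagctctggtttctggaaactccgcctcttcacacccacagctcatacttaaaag
In Igtp, Irgm2 and Tgtp1 the ISRE core began 11 bases after the start of the GAS core. This spacing, picked after it was seen in Igtp, occurred in 5 of 32851 promoters, the other 2 being Tgtp2 and the predicted gene Gm12185. The Igtp and Irgm2 promoters shared an unbroken run of 61 bases, and Irgm2 and Tgtp1 a run of 20 bases. Gbp3 and Irf1 each have another RefSeq promoter, not shown, which held neither core. Irgm1 and the Gbp3 promoter shown each held 2 overlapping ISRE cores with no GAS core, and Isg15 held 3 overlapping ISRE cores.

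Ratios are given as PACAP over vehicle, the mean over both dye orientations of the Feature Extraction log ratio, followed by the ratio on each array. A gene was counted as up-regulated or down-regulated when its brightest probe (by mean level over the 8 samples) reached 2.0-fold or 0.5-fold as a mean, with both arrays in the same direction and each at p below 0.01 in the Feature Extraction error model. That p describes the spots of 1 array and not animals. Levels are log2 intensities after background correction and normalization between arrays, and they compare samples for a probe but not different genes.

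At 60 min after PACAP treatment in WT mice, 6 of the 42 genes were up-regulated and 0 were down-regulated, where 0.659% of all genes were up-regulated and 0.115% down-regulated. The 6 genes were Igtp, Irgm2, Iigp1, Gbp2, Gbp3 and Gbp4, so that 3 of 5 Irg genes and 3 of 8 Gbp genes were counted, against 0 of 6 regulators and antigen-processing genes and 0 of 23 type I genes. The median log2 ratio was 1.02 for the Irg family, 0.78 for the Gbp family, 0.55 for the regulators and antigen-processing genes, 0.22 for the type I genes and 0.00 for all genes. With the normexp background correction, which pulls dim probes towards no change and was used without the p threshold, 2 of the 42 genes (Igtp and Gbp2) reached 2.0-fold, and the Irg and Gbp medians were 0.87 and 0.35. The median was then 0.47 for the regulators and antigen-processing genes, above that of the Gbp family, and 0.12 for the type I genes.

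**Figure D2:**
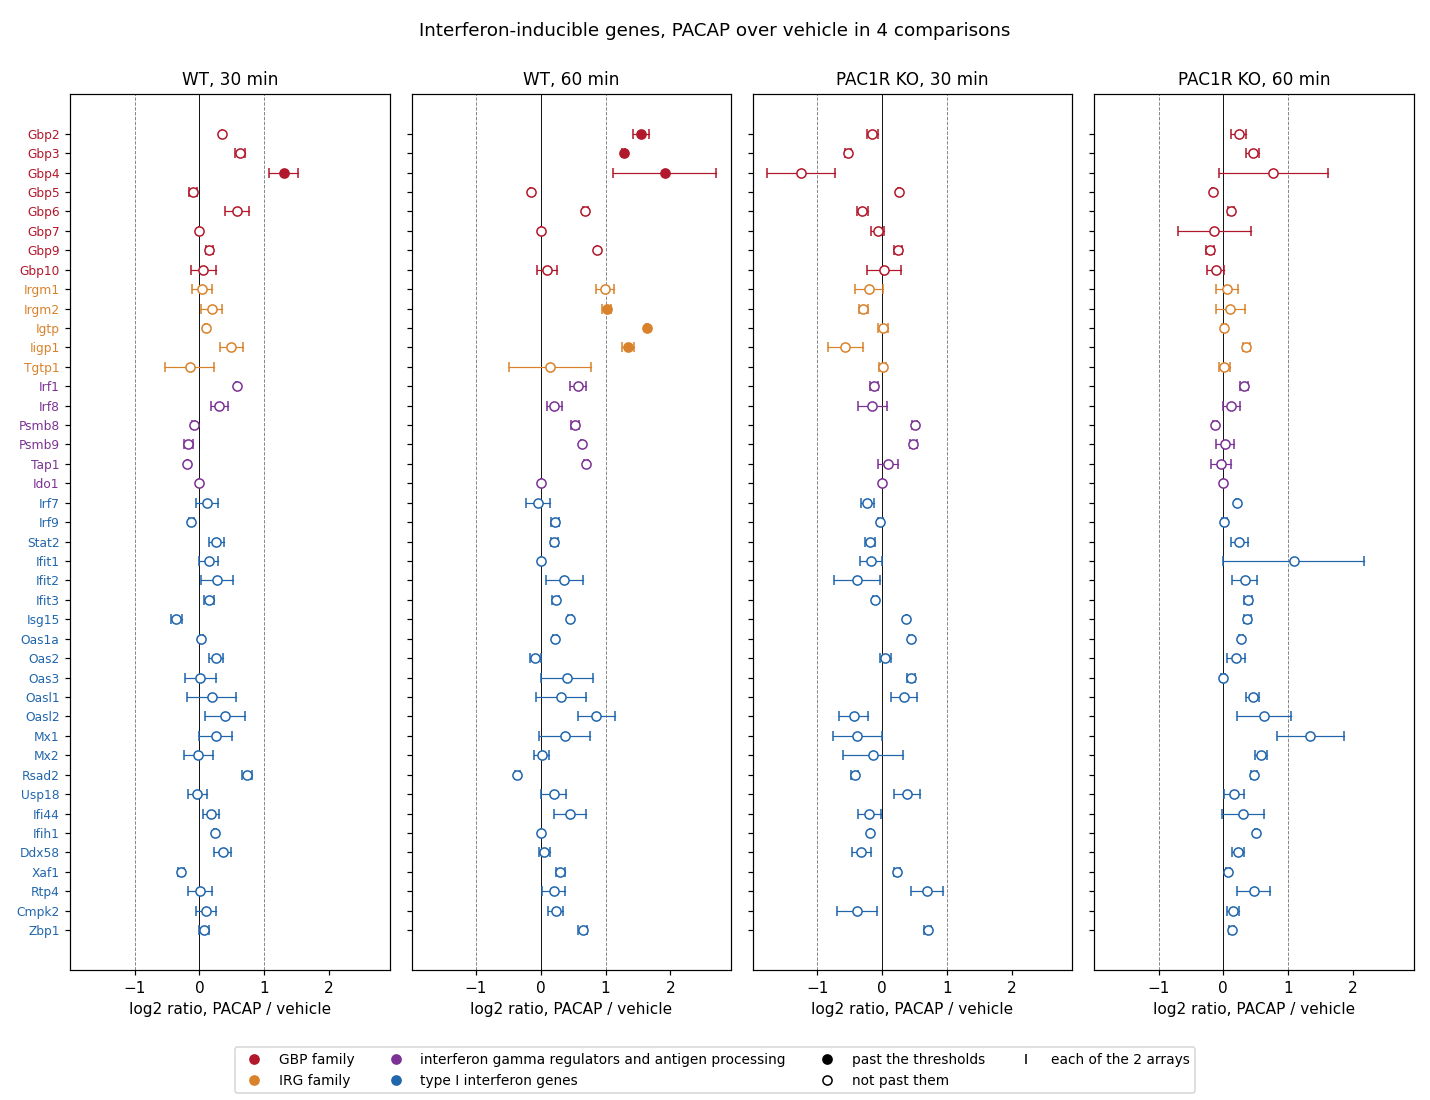
Log2 ratio of PACAP over vehicle for the 42 interferon-inducible genes (brightest probe) in the 4 comparisons, where circles are means of the dye swap, ticks are the 2 arrays, filled circles passed the thresholds and dashed lines mark 2.0-fold and 0.5-fold. At 60 min in WT mice 6 Gbp and Irg genes lie beyond 2.0-fold on the mean and pass, and no type I gene (blue) passed in any comparison.

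Among the Irg genes, Igtp (Irgm3), a regulator of GTPases on membranes, was measured by a probe at mm9 chr11:58020927-58020986 on the plus strand. Its levels, vehicle before PACAP, were 8.59 and 8.70 in WT mice at 30 min, 8.89 and 10.39 in WT mice at 60 min, 8.74 and 8.79 in KO mice at 30 min, and 8.81 and 8.84 in KO mice at 60 min. The WT 60 min PACAP sample alone stood out, since the other 7 samples all lay between 8.59 and 8.89. The ratio was 3.12-fold (3.09 and 3.14 on the arrays) at 60 min in WT mice and between 1.01-fold and 1.07-fold in the other 3 comparisons.

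Irgm2 (chr11:58036093-58036152, plus strand), of the same regulatory GTPases as Igtp, was 8.49 and 8.65 in WT mice at 30 min, 8.71 and 9.59 at 60 min, 8.91 and 8.69 in KO mice at 30 min, and 8.74 and 8.87 at 60 min, vehicle before PACAP. Its ratio of 2.02-fold in WT mice at 60 min (2.13 and 1.92 on the arrays) lay just inside the threshold. Irgm1 (chr11:48679069-48679128, minus strand), needed for resistance to mycobacteria, lay just outside it at 1.99-fold (1.80 and 2.19), while its dimmer probe (chr11:48679632-48679691) was 2.24-fold (2.36 and 2.13) and passed. The brighter Irgm1 probe read 8.57 with vehicle and 9.49 with PACAP in WT mice at 60 min and between 8.39 and 8.59 in the other 6 samples. Both genes were thus highest in the WT 60 min PACAP sample, and neither overlapped with the other 7 samples.

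Iigp1, an effector GTPase that loads onto pathogen vacuoles, was 2.54-fold on its brighter probe (2.70 and 2.39) in WT mice at 60 min and 5.60-fold on its dimmer probe (6.17 and 5.08). The brighter probe read 6.66 and 6.81 in WT mice at 30 min, 6.69 and 7.24 at 60 min, 6.69 and 6.55 in KO mice at 30 min, and 6.48 and 6.59 at 60 min. The dimmer probe was well above background on 1 of 2 arrays in 7 of the 8 samples, and its size is therefore less certain. Tgtp1, another effector GTPase, was 1.11-fold (1.72 and 0.71) and its levels lay between 6.13 and 6.32, close to background. Tgtp2, a near-identical copy that is not among the 42 genes, was 3.49-fold (3.72 and 3.27) on its probe, with a level of 9.77 in the WT 60 min PACAP sample and 7.89 to 8.24 in the other 7, so that the probes for these copies disagree.

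In the Gbp family, Gbp2 (chr3:142300719-142300778, plus strand), one of the GTPases recruited to vacuoles, had levels of 8.24 and 8.54 in WT mice at 30 min, 8.39 and 9.77 at 60 min, 8.64 and 8.55 in KO mice at 30 min, and 8.61 and 8.85 at 60 min. The WT 60 min PACAP sample was 0.92 above the highest of the other 7, and the ratio was 2.93-fold (3.18 and 2.70). Gbp3 (chr3:142236032-142236091, plus strand) was 7.17 and 7.55 in WT mice at 30 min, 7.15 and 7.92 at 60 min, 7.63 and 7.32 in KO mice at 30 min, and 7.20 and 7.49 at 60 min. Its ratio of 2.43-fold (2.39 and 2.46) thus came with a smaller gap, since the KO 30 min vehicle sample reached 7.63.

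Gbp4 (chr5:105544852-105544911, minus strand) was 3.77-fold at 60 min in WT mice, but the arrays were far apart at 6.56-fold and 2.16-fold, and the vehicle sample was well above background on 1 of its 2 arrays. Its levels were 6.49 and 6.91 in WT mice at 30 min, 6.23 and 6.61 at 60 min, 6.63 and 6.35 in KO mice at 30 min, and 6.14 and 6.28 at 60 min. The highest of these was the WT 30 min PACAP sample, and the KO 30 min vehicle sample lay level with the WT 60 min PACAP sample. Gbp6 was 1.61-fold (1.57 and 1.66) on its brighter probe and 2.83-fold (3.57 and 2.24) on its dimmer probe (chr5:105702128-105702187, minus strand), which passed the thresholds. Gbp4, Gbp6, Gbp9 and Gbp10 form a cluster of related genes on chromosome 5, and how far their probes take up RNA of a neighbour was not measured.

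The other Gbp genes were not counted. Gbp9 was 1.82-fold (1.82 and 1.83), with a Feature Extraction p below the threshold on both arrays but a mean under 2.0-fold. Gbp10 was 1.07-fold. Gbp5 was 0.90-fold on its brighter probe and 1.14-fold on the other. Gbp7 was 1.00-fold, near background on both of its probes.

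**Figure D3:**
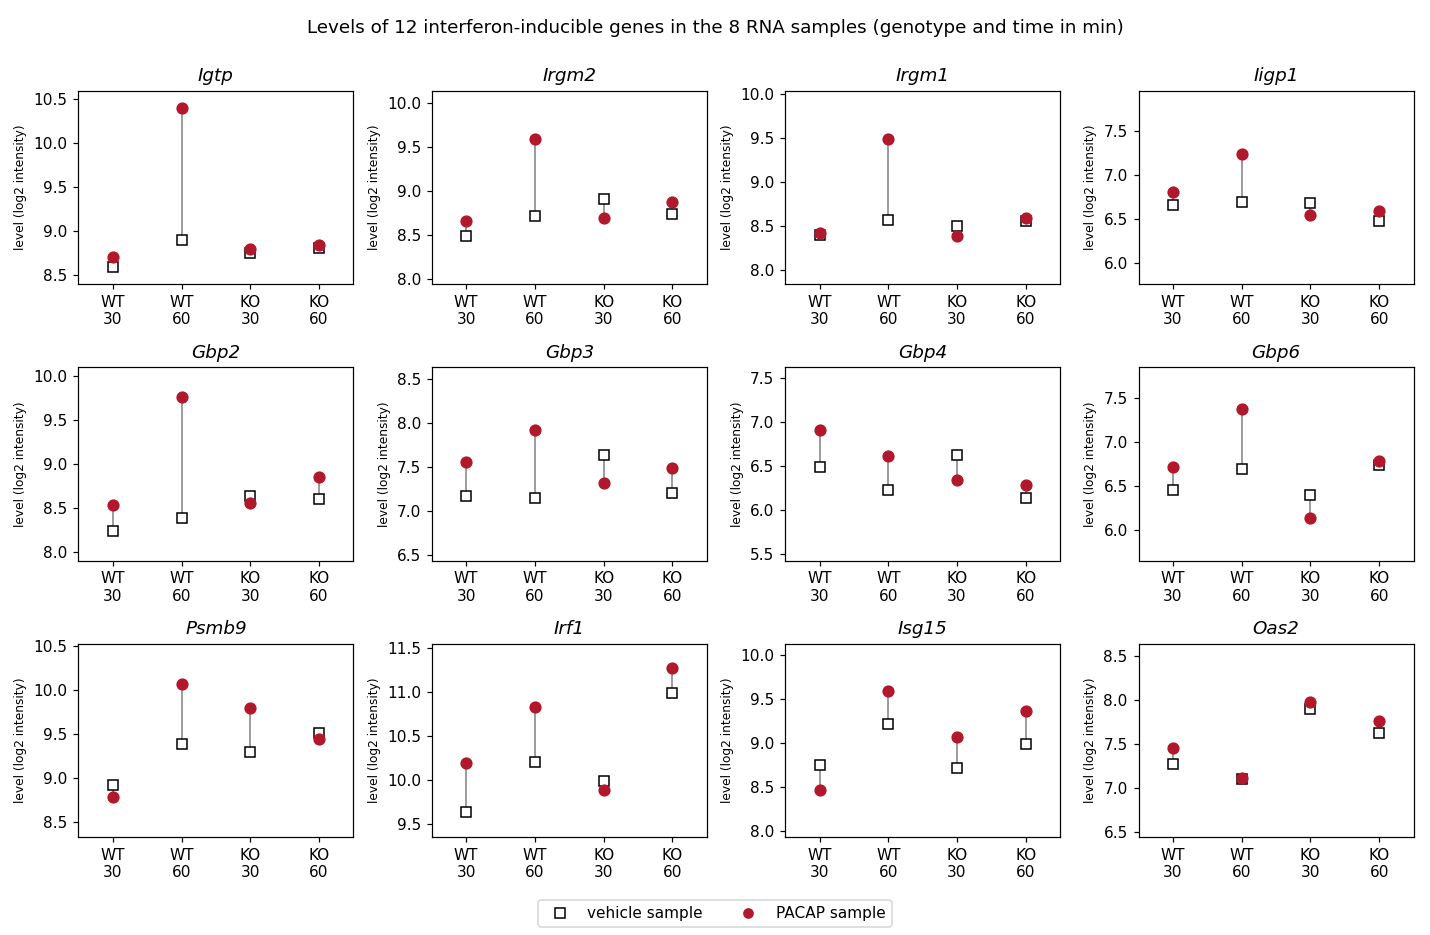
Levels (log2 intensity, mean of the dye swap) of 12 interferon-inducible genes in the 8 RNA samples, vehicle as open squares and PACAP as red circles, joined within a pair. For Gbp6 the dimmer probe is shown, every panel spans the same log2 range, and in Igtp, Irgm2, Irgm1 and Gbp2 the WT 60 min PACAP sample lies at 10.39, 9.59, 9.49 and 9.77, above the other 7 samples.

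None of the regulators and antigen-processing genes reached 2.0-fold at 60 min in WT mice. Their median lay below that of the Gbp family on Feature Extraction ratios but above it on normexp and loess ratios (0.47 against 0.35). Tap1, a subunit of the peptide transporter for class I presentation, was 1.62-fold (1.65 and 1.58). Psmb9 and Psmb8, catalytic subunits of the immunoproteasome, were 1.55-fold (1.55 and 1.54) and 1.45-fold (1.38 and 1.51). Both subunits had similar ratios in KO mice at 30 min, at 1.40-fold and 1.42-fold. Psmb9 levels were 8.91 and 8.79 in WT mice at 30 min, 9.38 and 10.06 at 60 min, 9.29 and 9.79 in KO mice at 30 min, and 9.51 and 9.44 at 60 min. The high values were therefore the PACAP samples of both these comparisons.

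Irf1, the transcription factor through which much of the interferon gamma response passes, had a ratio of 1.49-fold in WT mice at both times (1.63 and 1.36 on the arrays at 60 min), 0.92-fold in KO mice at 30 min and 1.25-fold at 60 min. Its levels were 9.64 and 10.20, 10.21 and 10.84, 9.99 and 9.89, and 10.99 and 11.27 in the same order, and the highest pair was KO 60 min with both samples. Irf8, a regulator in myeloid cells, was 1.24-fold and 1.16-fold in WT mice and 0.90-fold and 1.09-fold in KO mice. Ido1, which degrades tryptophan, was listed at 1.00-fold in all 4 comparisons and was not well above background on both arrays of any sample.

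None of the 23 type I genes was counted in any comparison. At 60 min in WT mice their log2 ratios ran from -0.36 for Rsad2, an antiviral enzyme, to 0.86 for Oasl2, an oligoadenylate synthetase-like protein, and 19 of 23 were above 0, against 38.5% of all genes. This share of all genes, like those given below for KO mice, has genes at exactly 0 in its total. At 60 min in WT mice these were 4224 of 29608 genes and 1 of the 23. The regulators of this branch had small ratios there, with Stat2 at 1.16-fold, Irf9 at 1.16-fold and Irf7 at 0.97-fold. Isg15, a ubiquitin-like modifier, was 1.37-fold (1.40 and 1.33) at 60 min in WT mice, 0.78-fold at 30 min, and 1.29-fold in both KO comparisons. Its levels of 8.75 and 8.47, 9.22 and 9.60, 8.72 and 9.07, and 8.99 and 9.36 overlapped between treatments. Zbp1, a sensor of nucleic acids in the Z form, was 1.57-fold (1.49 and 1.65) at 60 min in WT mice and 1.63-fold (1.56 and 1.70) at 30 min in KO mice, with levels of 7.68 and 7.74, 8.37 and 8.92, 8.20 and 8.81, and 8.56 and 8.74. Of the others, Ifit1, Ifit2, Ifit3, Oas1a, Oas2, Oas3, Oasl1, Mx1, Mx2, Usp18, Ifi44, Ifih1, Ddx58, Xaf1, Rtp4 and Cmpk2 lay between -0.09 and 0.46 on the log2 scale at 60 min in WT mice.

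The WT 60 min PACAP sample was also compared with vehicle samples other than its own. Against the median of the vehicle samples of the other 3 pairs, the WT 60 min PACAP sample was higher by 1.65 for Igtp, 1.16 for Gbp2, 0.98 for Irgm1, 0.85 for Irgm2, 0.71 for Gbp3 and 0.58 for Iigp1, on the log2 scale of levels. Against its own vehicle sample, Gbp2 was higher by 1.38, Irgm1 by 0.92, Irgm2 by 0.87, Gbp3 by 0.77 and Iigp1 by 0.55, and Igtp by the step from 8.89 to 10.39. The WT 60 min vehicle sample differed from that median by at most 0.22 for these 6 genes, of which Irgm1 was not counted on its brightest probe. Gbp4, which was counted, was higher by only 0.12 against that median and by 0.38 against its own vehicle sample. For Gbp4 the difference of the WT 60 min vehicle sample from that median was -0.26.

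**Figure D4:**
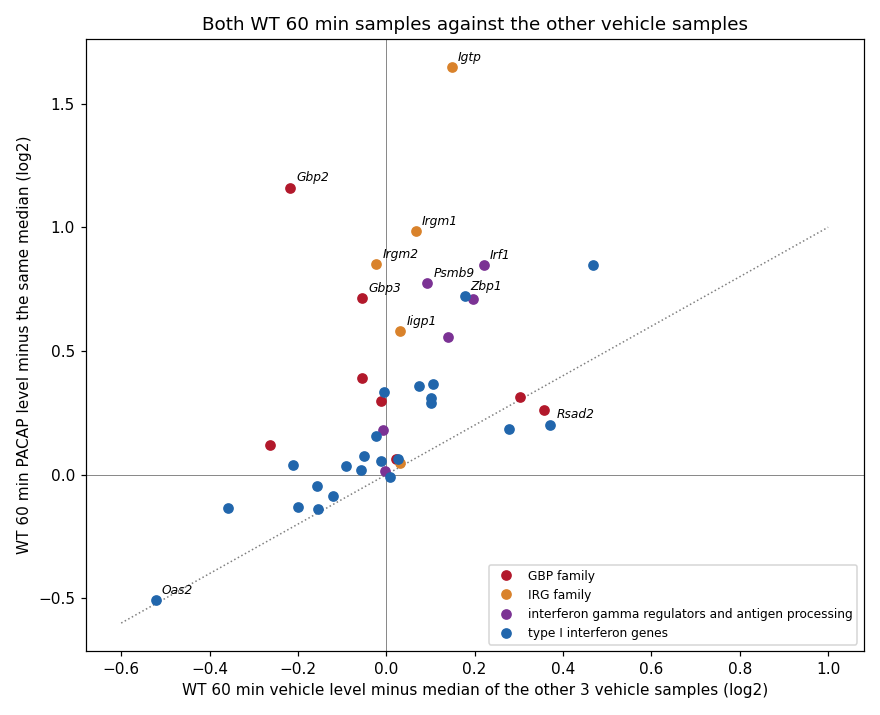
Level of the WT 60 min PACAP sample against that of the WT 60 min vehicle sample for the 42 genes, both as log2 differences from the median of the other 3 vehicle samples, where points on the dotted line have no difference within the pair. Igtp lies at 1.65 and Gbp2 at 1.16 on the vertical axis, and Oas2 is low in both samples, at -0.52 with vehicle and -0.51 with PACAP.

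Across the 28454 genes well above background somewhere, the WT 60 min PACAP sample was the highest of the 8 samples for 7.85%. Among the 42 genes it was the highest for 17, namely 4 of 5 Irg, 3 of 8 Gbp, 3 of 6 regulators and antigen-processing genes, and 7 of 23 type I genes. A gap of at least 0.5 on the log2 scale over the other 7 samples, a limit set with these values known, was found for 13 genes in all (0.0457%). Of these, 4 were members, Igtp, Gbp2, Irgm1 and Irgm2. The other 9 were Cxcl9, Tgtp2, Cxcl10, Ifi47, Ubd, Fcgbp, Cd274, Fancd2os and Vmn1r65. Cxcl9 and Cxcl10 are chemokines for activated T cells, Ifi47 is another Irg protein, Ubd encodes the ubiquitin-like protein FAT10, and Cd274 encodes the checkpoint ligand PD-L1.

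At 30 min in WT mice, 1 of the 42 genes was up-regulated and 0 were down-regulated, where 0.267% of all genes were up-regulated and 0.108% down-regulated. That gene was Gbp4, at 2.46-fold (2.87 and 2.10), with the vehicle sample well above background on 1 of 2 arrays. The medians were 0.25 for the Gbp family, 0.10 for the Irg family, -0.05 for the regulators and antigen-processing genes and 0.14 for the type I genes. Among the genes counted at 60 min, Gbp3 was 1.55-fold, Iigp1 1.41-fold, Gbp2 1.27-fold, Irgm2 1.14-fold and Igtp 1.07-fold. The dimmer Gbp6 probe was 2.11-fold but differed between the arrays at 3.41 and 1.30.

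In PAC1R KO mice none of the 42 genes was counted. The backgrounds were 0.692% up and 0.0979% down at 30 min, and 0.179% up and 0.162% down at 60 min. At 30 min the medians were -0.11 for the Gbp family, -0.20 for the Irg family, 0.05 for the regulators and antigen-processing genes and -0.14 for the type I genes, of which 9 of 23 were above 0 against 43.6% of all genes. Gbp4 was 0.42-fold (0.60 and 0.29), with a Feature Extraction p of 0.0139 on the first array, and the dimmer Gbp6 probe was 0.35-fold (0.56 and 0.22) with a p of 0.0459. Gbp3 was 0.70-fold and Iigp1 0.67-fold. At 60 min the medians were 0.00, 0.06, 0.01 and 0.30 in the same order, and 22 of 23 type I genes were above 0, against 45.0% of all genes. The highest was Mx1, which encodes a GTPase, at 2.54-fold (3.65 and 1.77). It missed the p threshold on both arrays and was well above background on 1 of 2 arrays in every sample. Gbp2, Igtp, Irgm1 and Irgm2 lay between 1.01-fold and 1.18-fold at 60 min in KO mice.

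The difference of the PACAP effect between genotypes was tested with limma over 30350 probes, each genotype being represented by its ratios at 30 and 60 min. No probe passed at an adjusted p below 0.05 (0%), and 3.2% of all probes had an unadjusted p below 0.05. Of the 40 members whose brightest probe entered the fit, 4 had such a p, all lower in KO mice. The log2 differences KO minus WT were -1.84 ± 0.64 (SE) for Gbp4, -0.73 ± 0.23 for Gbp6, -0.99 ± 0.39 for Gbp3 and -1.03 ± 0.41 for Iigp1, each with a limma adjusted p of 0.839. The dimmer Gbp6 probe differed by -2.02 ± 0.50. On normexp and loess ratios these differences were smaller, at -0.47 for Gbp4, -0.28 for Gbp6, -0.59 for Gbp3, -0.36 for Iigp1 and -0.58 for the dimmer Gbp6 probe, each with a limma adjusted p of 0.849. With the time point as a covariate, 17 probes passed (0.056%), among them the dimmer Gbp6 probe at a limma adjusted p of 0.0196, while Gbp4 had an adjusted p of 0.0512. Igtp differed by -0.85 and Gbp2 by -0.90 in that fit, each with an adjusted p of 1. In the fit with time, 7 of the 40 members had an unadjusted limma p below 0.05, against 3.12% of all probes. That fit leaves 1 residual degree of freedom. Whether the genotype difference itself changes with time could not be tested with 1 value per cell of the design.

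The mean of the 4 comparisons was tested against 0 in the same way, with 0 probes passing (0%) and 2.23% of all probes at an unadjusted p below 0.05. Of the 40 members, 38 (95.0%) had a mean log2 ratio above 0 with a median of 0.19, against 47.0% of 23066 genes above 0, and 5 had an unadjusted p below 0.05. These were Oasl1 at 0.32 ± 0.09 (SE), Zbp1 at 0.39 ± 0.14, Rtp4 at 0.34 ± 0.13, Irf1 at 0.34 ± 0.14 and Oas1a at 0.24 ± 0.10, each with a limma adjusted p of 1. Oasl1, an oligoadenylate synthetase-like protein, was above 0 in 4 of 4 comparisons, between 0.19 and 0.45. The count of 5 members depended on the comparisons used. It was 6 without WT 30 min, 1 without WT 60 min and 1 without KO 60 min. Without KO 30 min it was 13, where 3086 of 30350 probes had such a p.

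Between genotypes, Oas2 was higher and Irf7 lower in KO mice in a fit over all 8 samples, and the members as a group were called no more often than all probes. In that fit, with time and treatment in the model and the pair as a random block, 5.52% of 37756 probes passed at a limma adjusted p below 0.05, and 2 of the 42 members passed on their brightest probe. At an unadjusted p below 0.05 these were 26.1% of probes and 6 of the 42 members. Oas2, an oligoadenylate synthetase that activates RNase L, was 0.58 ± 0.04 (SE) higher in KO mice (limma adjusted p = 0.0224). Its levels were 7.27, 7.44, 7.10 and 7.11 in WT samples and 7.90, 7.97, 7.62 and 7.75 in KO samples, so that the genotypes did not overlap. Irf7, the main amplifier of type I interferon production, was lower in KO mice by 0.19 on the log2 scale (difference -0.19 ± 0.04, limma adjusted p = 0.0483). Its levels overlapped, at 6.57 to 6.83 in WT and 6.38 to 6.61 in KO samples. On Feature Extraction processed signals Irf7 did not pass (limma adjusted p = 0.181), Oas2, Oas3 and Oasl1 passed, all higher in KO mice, and 3687 probes were higher and 532 lower in KO mice, against 1132 and 952 on the levels used here. The dimmer Gbp5 probe was 0.51 ± 0.04 higher in KO mice (limma adjusted p = 0.0224), at 6.72 to 6.78 in WT samples and 7.13 to 7.33 in KO samples, while the brighter Gbp5 probe overlapped at 7.90 to 8.42 and 8.06 to 8.52. With 1 value per pair of samples, 0 members and 0 of 37756 probes passed, and the smallest limma adjusted p was 0.390. No member and no other probe passed without the WT 30 min, the WT 60 min or the KO 60 min pair. Without the KO 30 min pair 3 members passed, where 3619 of 37756 probes passed. Among the 4 vehicle samples alone 0 of 37540 probes passed in limma (0%), 6.47% had an unadjusted p below 0.05, and Oas2 was 0.57 ± 0.13 and Gbp2 0.31 ± 0.08 higher in KO mice (limma adjusted p = 0.763).

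Between times, 10.7% of probes passed in the same fit, as did 5 of the 42 members, and 30.5% of probes and 13 of the 42 members had an unadjusted p below 0.05. The members as a group were thus called about as often as all probes. Irf1 was 0.90 ± 0.19 (SE) higher at 60 min than at 30 min (limma adjusted p = 0.0445), and its levels ran from 9.64 to 10.20 at 30 min and from 10.21 to 11.27 at 60 min. Gbp10 was 0.33 ± 0.03 higher (limma adjusted p = 0.0091), Gbp5 0.37 ± 0.08 (0.0425), and Irf7 0.20 ± 0.04 (0.0325), while Oas2 was lower at 60 min (difference -0.25 ± 0.04, limma adjusted p = 0.0217). On Feature Extraction processed signals Oas2 and Gbp5 did not pass, Gbp10, Irf1, Irf7 and Tgtp1 passed, all higher at 60 min, and 4894 probes were higher and 1002 lower at 60 min, against 2636 and 1408. With 1 value per pair of samples 0 members and 0 of 37756 probes passed, the smallest limma adjusted p being 0.227. No member and no other probe passed without the WT 30 min, the WT 60 min or the KO 60 min pair. Without the KO 30 min pair 12 members passed, where 11793 of 37756 probes passed.

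Upstream of these genes, Ifng and Ifnb1 gave signals close to background. Ifng, encoding interferon gamma, was 3.01-fold (2.80 and 3.24) at 60 min in WT mice, with Feature Extraction p of 0.0849 and 0.141. The vehicle sample of that pair read 5.96, the PACAP sample 6.23 and the other 6 samples 5.88 to 5.93. In that pair 1 of 2 arrays of each sample was well above background. Ifnb1, encoding interferon beta, stayed between 5.89 and 6.01. None of 14 interferon genes on the array was counted in any comparison, and 4 of the 14 were well above background on both arrays of all samples. The receptor chains were well above background in all samples, with Ifngr1 between 12.06 and 12.51, Ifngr2 between 10.56 and 10.98, Ifnar1 between 7.49 and 7.90 and Ifnar2 between 10.12 and 10.52, and none was counted. Socs1, a feedback inhibitor of JAK kinases, was 1.01-fold at 60 min in WT mice.

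Of 89 other genes of the interferon pathway that were listed beside the members (ligands, receptors, JAK-STAT and its inhibitors, nucleic acid sensors, class I presentation and other inducible genes), 2 were up-regulated at 60 min in WT mice, 0 at 30 min in WT mice, 1 at 30 min in KO mice and 0 at 60 min in KO mice, and 0 were down-regulated. The 2 were Ifi47 at 2.55-fold (2.65 and 2.45) and Cd274 at 2.05-fold (2.02 and 2.08). The level of Ifi47 was 9.71 in the WT 60 min PACAP sample and 8.11 to 8.84 in the other 7. In KO mice at 30 min the gene was Ifitm1, a membrane protein that blocks virus entry, at 2.11-fold (2.52 and 1.77). Among the CXCR3 ligands, the level of Cxcl9 was 6.72 and 9.05 in the WT 60 min pair and 5.88 to 6.31 in the other 6 samples, and that of Cxcl10 was 7.68 and 9.76 in that pair, 8.48 and 8.56 in the KO 60 min pair (1.07-fold) and 6.75 to 7.25 in the other 4 samples. Cxcl10 was also up-regulated at 30 min in WT mice (2.18-fold), whereas Cxcl11 was 1.02-fold at 60 min.

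**Figure D5:**
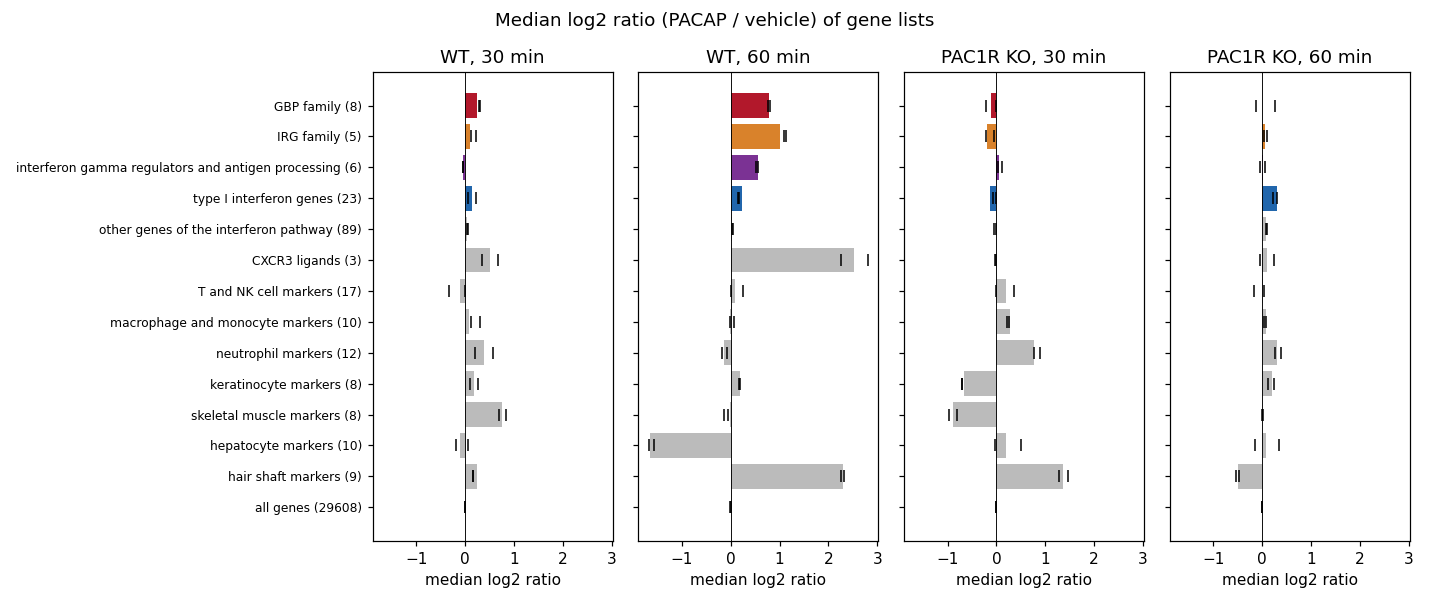
Median log2 ratio of PACAP over vehicle for the 4 classes of interferon-inducible genes (coloured bars), for other lists (grey bars) and for all genes, with the number of genes in parentheses and ticks for the median on each array. At 60 min in WT mice the Irg and Gbp medians are 1.02 and 0.78, and in the same comparison the hair shaft list lies at 2.29 and the hepatocyte list at -1.66.

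Other tissue markers moved in the same comparison. At 60 min in WT mice, 8 of 9 hair shaft genes were up-regulated (median log2 ratio 2.29), and 6 of 10 hepatocyte genes were down-regulated (median -1.66). The summed hair shaft level (log2) of that pair read 12.66 with vehicle and 14.23 with PACAP, and it was 14.73 and 14.24 in the KO 60 min samples, where Igtp was 8.81 and 8.84. In KO mice at 30 min 6 of 9 hair shaft genes were up-regulated and 1 down-regulated, with Igtp at 1.01-fold. The summed hepatocyte level was highest of the 8 samples in the WT 60 min vehicle sample, at 11.58, and was 10.87 in the paired PACAP sample. Of 17 T and NK cell markers, 0 were counted in any comparison, their log2 ratios at 60 min in WT mice ran from -0.18 to 0.78 (Gzmb), 7 of 17 were well above background on both arrays of all samples, and their summed level was 12.33 and 12.36 in that pair against 12.06 to 12.64 over all samples. Of 10 macrophage and monocyte markers, 0 were counted, with a median of -0.01. At 30 min in KO mice, 2 of 8 keratinocyte and 3 of 8 skeletal muscle genes were down-regulated and 4 of 12 neutrophil genes up-regulated, while at 60 min in KO mice 2 of 12 neutrophil genes were up-regulated and 1 of 9 hair shaft genes down-regulated. In WT mice at 30 min 1 of 8 skeletal muscle genes was up-regulated, and 1 of 9 hair shaft genes was up-regulated and 1 down-regulated. The part of these shifts in the ratios of the interferon-inducible genes was not tested, and in skin RNA fewer cells of a type and less RNA per cell cannot be told apart.

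As a check of the samples, all 8 keratinocyte markers were well above background on both arrays of every sample, as were all 8 skeletal muscle markers. The single probe for the targeted gene Adcyap1r1 was also well above background in every sample, at 8.26 to 8.76 in WT and 7.91 to 8.56 in KO samples. Whether it lies in the deleted part is not given in the sources used here, so it does not check the genotype labels. On each array 54.0% to 65.3% of spots exceeded background clearly in the green channel and 78.6% to 94.5% in the red. Of the 42 genes, 30 were well above background on both arrays of all 8 samples, against 16142 of all 29608 genes.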

How the data were processed

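RNA from 8 skin samples was hybridised by the authors to 8 Agilent 2-colour mouse arrays in 4 dye-swapped pairs. The authors' Feature Extraction software (version 12.0.3.1 in the file headers, 11.0.1.1 in the submitters' processing notes) subtracted background and normalized dyes by LOWESS. Each spot's deposited log10 ratio (red over green), its deposited p-value and its deposited intensity values were used, and the deposited series matrix, log10 ratios of the processed signals, served as an alternative. Directions came from the dyes in the labels. Gene names and mm9 positions are those of the files.

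Control spots and outlier spots (198 to 342 per array) were left out, and spots of a probe and both arrays of a pair were averaged. The software had set 13.4% to 25.0% of the log ratios per array to 0. Levels came from mean signals after normexp (offset 50), loess and Aquantile in limma 3.58.1 (R 4.3.3). The number of arrays limits the precision. Changes across comparisons or samples were tested with limma (lmFit, eBayes, Benjamini-Hochberg over all probes tested, threshold 0.05) after probes near background were left out, and the fits were tested on simulated data. p-values measure only the spread between these samples.

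The genes, lists and rules for naming were chosen with earlier results of these data known: every member is accounted for, with values for those past the thresholds on any probe, the widest ranges of level, the smallest p of each fit and the main regulators. Promoters are from RefSeq (GRCm38.p6). Iigp1 sequence and proteins were not used here.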

Additional observations from a re-analysis of the deposited data

Results flagged for a closer look

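In 5 of 40 members 1 of the 4 comparisons lay far from the other 3, by Dixon's criterion at the 95% level, a gap that chance alone gives in about 1 in 20 such sets. This is 12.5% of the members, against 6.13% of 23049 genes by the same criterion. Igtp had a log2 ratio of 1.64 at 60 min in WT mice against 0.01 to 0.10 in the other comparisons. Gbp5 had 0.26 at 30 min in KO mice, Stat2 -0.19 and Ifit2 -0.39 at 30 min in KO mice, and Isg15 -0.36 at 30 min in WT mice, all of them under 2.0-fold.

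The PACAP effect on the dimmer Gbp6 probe differed between genotypes by -2.02 (KO minus WT) in the limma fit with time as a covariate, at a limma adjusted p of 0.0196 and with 1 residual degree of freedom. The brighter Gbp6 probe differed by -0.73 in that fit, with an adjusted p of 1. On normexp and loess ratios the dimmer probe differed by -0.58, and its arrays lay far apart, at 3.41-fold and 1.30-fold in WT mice and 0.56-fold and 0.22-fold in KO mice at 30 min. Genotype cannot be told apart from slide.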

How the results depend on the processing

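Depth in the sense of reads does not apply, and signal over background limits the dim Gbp4, Gbp6, Iigp1 and Mx1 probes. The 6 genes counted at 60 min in WT mice fell to 2 with normexp and loess ratios and no p filter, which could not be applied to those ratios, and to 5 with the fold threshold on each array (without Irgm2), and were 8 when any probe of a gene could pass, with Gbp6 and Irgm1 added. On normexp levels without the p filter, and against the vehicle samples of the other pairs (an alternative chosen after seeing the data), 2 passed, Igtp and Gbp2, which were also the genes that reached 2.0-fold with normexp against their own vehicle sample. At 30 min in WT mice Gbp4 did not pass on normexp values against either its own vehicle sample (log2 0.42) or the others (0 genes). Without the p filter 1 gene was down at 30 min in KO mice (Gbp4) and 1 up at 60 min in KO mice (Mx1), and on normexp levels against the vehicle samples of the other pairs 1 was up at 60 min in KO mice (Irf1). From either array alone the counts were 6 to 7 at 60 min in WT mice. The first array added the type I gene Oasl2 (2.22-fold), and the second held Irgm1 (2.19-fold) in place of Irgm2. From either array alone 0 to 1 were down at 30 min in KO mice (Gbp4) and 0 to 3 up at 60 min in KO mice (Gbp4, Ifit1 and Oasl2).

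The median log2 ratios, which were not computed against other vehicle samples, kept their sign under the other alternatives, except 2 that lay near 0 at 60 min in KO mice. That of the regulators (0.01) was -0.01 with normexp and loess ratios and -0.05 to 0.06 from either array alone, and that of Gbp (0.00) was -0.12 to 0.25 from either array alone. With normexp and loess ratios at 60 min in WT mice they were 0.20 for all members, 0.35 for Gbp, 0.87 for Irg, 0.47 for regulators and 0.12 for type I genes. At 30 min in WT mice they were 0.16 for Gbp and -0.02 for regulators, at 30 min in KO mice -0.03 for all members and -0.04 for type I genes, and at 60 min in KO mice 0.13 and 0.18. Members well above background gave 0.34 at 60 min in WT mice, with regulators at -0.09 at 30 min, and the series matrix gave 0.34 and -0.13. With all probes the values were 0.69 for Gbp, 1.16 for Irg and 0.42 for regulators at 60 min in WT mice, 0.15 for Gbp at 30 min in WT mice and 0.19 for all members at 60 min in KO mice. From either array alone, at 60 min in WT mice, they were 0.32 to 0.35 for all members, 1.09 to 1.13 for Irg, 0.52 to 0.55 for regulators and 0.15 to 0.17 for type I genes. At 30 min in WT mice Gbp gave 0.28 to 0.30, Irg 0.11 to 0.22 and regulators -0.05 to -0.03. At 30 min in KO mice all members gave -0.10 to -0.02, Irg -0.21 to -0.04, regulators 0.04 to 0.12 and type I genes -0.08 to -0.01, and at 60 min all members gave 0.18 to 0.19, Irg 0.04 to 0.10 and type I genes 0.21 to 0.31.

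In the limma fits, leaving out 1 comparison in turn gave 0 to 2 members for the genotype difference of the PACAP effect, the 2 being Igtp and Gbp4 without WT 30 min, where WT mice have 1 value that is assumed to vary like the KO values and where 170 of 30350 probes passed. Leaving out 1 pair in turn gave 0 to 3 members for genotype (0 without WT 30 min, WT 60 min or KO 60 min) and 0 to 12 for time (0 without the same pairs, 12 without KO 30 min), with the block correlation set to 0 because the pair is then fixed by the model. Where 0 members passed in these fits, 0 probes passed at all. With 1 value per pair of samples, chosen after seeing the data, 0 members passed for genotype and 0 for time, and 0 of 37756 probes passed in either fit. Each ratio is itself taken within a pair of PACAP and vehicle samples, and the level fits block on the pair. No paired analysis was possible because the replicate numbers mark only the dye orientation and both arrays of a pair are averaged into 1 value, so these numbers add no further block.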
